A study of Homo sapiens with 6 samples.

Results

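Long intergenic noncoding RNAs (lincRNAs) are spliced or unspliced transcripts that lie between protein-coding genes and are not translated into a known protein. Here they were examined in A375, an established melanoma line of human origin, after sorting by fluorescence on Aldefluor, a dye that is retained in cells in which aldehyde dehydrogenases convert it. The set comprised every gene that the deposited table annotates as lincRNA and whose raw count averaged at least 100 over the 6 libraries. This gave 177 genes out of 57914 in the table and out of 7328 annotated as lincRNA. Of these 177, 176 passed the low-count filter of the fit and were tested. The genes were thus chosen by their annotation and their mean raw count over both groups together, and the difference between the groups was not used in the choice.

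The ALDH_High group was the 5% of cells with the strongest Aldefluor signal and the ALDH_Low group the 5% with the weakest, with 3 libraries each. All cells were A375 grown in the same medium and differed, per the labels, only in the sort gate. A375 is a single line, and the labels do not say whether the 3 libraries of a group came from separate cultures or sorts, so the p-values measure the spread between these libraries, which may be technical. Stranded libraries were made from polyadenylated RNA, which favours lincRNAs with a poly(A) tail.

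LincRNAs act in several ways. Some, such as MALAT1 and NEAT1, stay in the nucleus and build or occupy nuclear bodies; some bind and hold proteins; some are mainly carriers from which small nucleolar RNAs (snoRNAs) or microRNAs are cut; and for others the act of transcription affects a neighbouring gene. They are known for expression that is more cell-type specific than that of coding genes. In melanoma, SAMMSON, which is transcribed beside the lineage gene MITF, is a known example.

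Total counts per library lay between 26692868 and 37830603. Along the first principal component of log2 CPM, which carried 68.2% of the variance, the groups lay apart. The second component carried 13.8% and set ALDH_High library 1 (score 35.6) apart from ALDH_High libraries 2 and 3 (-16.4 and -22.5). The aldehyde dehydrogenase gene ALDH1A3 had 683, 1149 and 1088 CPM (counts scaled to library size) in ALDH_High libraries 1 to 3 and 345, 419.5 and 403 CPM in ALDH_Low libraries 1 to 3. The melanocyte lineage factor SOX10 had 366 to 447 TPM (a level corrected for transcript length and library size) in ALDH_High and 102 to 116 TPM in ALDH_Low. Of the same list S100B was also higher in ALDH_High (log2 fold change 4.28), MITF (-0.92, adjusted p 0.00667) and TFAP2A (-0.58, adjusted p 0.0266) were lower, and the pigment genes PMEL, MLANA, TYR and DCT stayed below 1 TPM in every library. Of 5 white blood cell markers, 4 were below 1 TPM in every library, and the exception was LYZ, at up to 7.71 TPM; the 3 endothelial markers were all below 1 TPM. LYZ was higher in ALDH_High (1.65, adjusted p 0.0240), while the white blood cell marker CD14 was lower (-1.96, adjusted p 0.0142). The 4 epithelial markers summed to 17.2 to 23.3 TPM in ALDH_High and 12.1 to 16.5 TPM in ALDH_Low, with KRT14 the highest of them in each library. KRT14 did not pass an adjusted p of 0.05 (0.58, adjusted p 0.108), and KRT5 was lower in ALDH_High (-3.63, adjusted p 8.98e-04). The 3 fibroblast markers summed to 7.89 to 10.6 TPM in ALDH_High and 4.92 to 5.06 TPM in ALDH_Low. The part of these cell-type markers in the lincRNA results was not tested. In bulk RNA, fewer cells that make a transcript and less of it per cell cannot be told apart.

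The 177 lincRNAs together made up 0.182% to 0.273% of the reads counted per library. The lowest share was that of ALDH_High library 1; the other libraries lay between 0.226% and 0.273%. Their deposited TPM summed to 2772, 3329 and 3457 in ALDH_High libraries 1 to 3 and to 3779.9, 3720.1 and 3822 in ALDH_Low libraries 1 to 3. Summed TPM was therefore lower in each ALDH_High library than in any ALDH_Low library, at 3186 ± 365 against 3774 ± 51.4 (SD, n = 3). Single genes ranged in mean TPM from 0.762 (LINC00346) to 302 (LINC01029), with a median of 9.22, and 83 exceeded 10 TPM and 6 exceeded 100 TPM.

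At the highest level stood LINC01029, a lincRNA of chromosome 18 (77970637 to 77993731, minus strand, GRCh38). It had 140.0, 197 and 215 TPM in ALDH_High and 407, 431 and 420.0 TPM in ALDH_Low. The groups were far apart, and LINC01029 fell in ALDH_High by 1.25 on the log2 scale of CPM (SE 0.13, edgeR adjusted p 1.28e-04). SNHG8 followed with a mean of 271 TPM, then SNHG25 with 182 TPM, AC245595.1 with 139 TPM, MIR4435-2HG with 132 TPM, CYTOR with 122 TPM, SNHG9 with 88.7 TPM and SNHG19 with 82.2 TPM. AC245595.1 (LINC02802 in GENCODE 44) also fell, with a log2 fold change of -0.83 (SE 0.14, adjusted p 0.00230), and SNHG19, a snoRNA host, fell with -0.60 (SE 0.18, adjusted p 0.0373). SNHG8 and SNHG25 overlapped in their TPM between the groups, and for neither did CPM pass the test (adjusted p 0.132 and 0.860). The 8 most abundant lincRNAs made up 32.2% to 35.6% of the summed lincRNA TPM in ALDH_High and 39.9% to 42.4% in ALDH_Low. The order of the 8 by mean TPM is a description, and neighbours such as MIR4435-2HG and CYTOR differed by less than the spread between libraries.

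**Figure D1:**
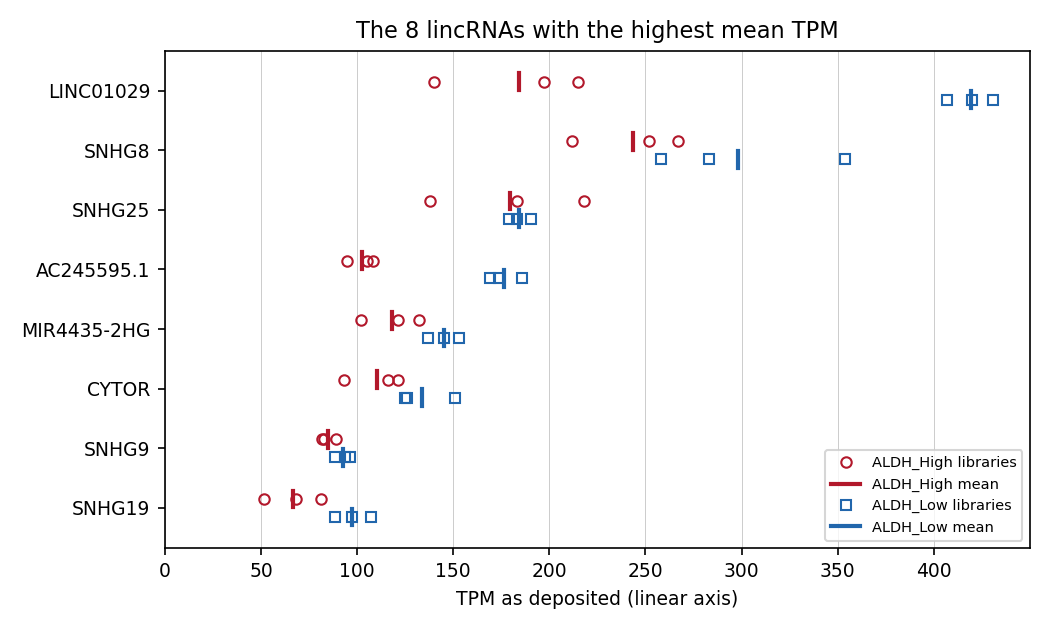
Deposited TPM (linear axis) of the 8 lincRNAs with the highest mean TPM; circles are the 3 ALDH_High libraries, squares the 3 ALDH_Low libraries and bars the group means. LINC01029 lies between 140.0 and 215 TPM in ALDH_High and between 407 and 431 TPM in ALDH_Low, while SNHG25 overlaps between the groups.

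Differences between ALDH_High and ALDH_Low ran mostly downward in the lincRNAs. At an adjusted p below 0.05, 45 of the 176 tested lincRNAs (25.6%) differed, 15 of them (8.52%) higher and 30 (17%) lower in ALDH_High. Over all 17047 genes tested in the same fit the share was 20.6%, with 10.8% higher and 9.83% lower. Among protein-coding genes with the same minimum count, 20.9% differed, 11.9% higher and 8.94% lower, and among antisense RNAs with that minimum 26% did, 8.44% higher and 17.5% lower. The downward balance was therefore also present in antisense RNAs, and no test of the lincRNAs as a set was made. The median log2 fold change was -0.19 for the lincRNAs, -0.19 for antisense RNAs, 0.019 for protein-coding genes and -0.013 for all genes tested. The median absolute log2 fold change was 0.39 for the lincRNAs, 0.39 for antisense RNAs, 0.21 for coding genes and 0.28 for all genes tested. Log2 fold changes below 0 were found in 63.1% of the lincRNAs, 70.8% of the antisense RNAs, 47.2% of the protein-coding genes and 51.4% of all genes tested. An unadjusted p below 0.05 was reached by 42% of the lincRNAs, 39% of the antisense RNAs and 32.3% of all genes. A change that passed and was at least 1 in absolute log2 size was found in 13.1% of the lincRNAs and 10.4% of the antisense RNAs. It was found in 8.02% of the protein-coding genes and 11.5% of all genes.

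In all 45 lincRNAs that differed, the 3 ALDH_High values lay entirely above or below the 3 ALDH_Low values in CPM. Groups that did not overlap were found in 86 of the 176 (48.9%), against 50.6% of antisense RNAs with the same minimum count and 37.8% of all genes tested. With 3 libraries a group, an exact two-sided permutation test cannot go below p = 0.10. That was its value for each of the 16 lincRNAs with the largest differences. These were picked among lincRNAs whose groups do not overlap, which fixes that value. Without ALDH_High library 1, the library that stood apart, 52 lincRNAs differed, 18 higher and 34 lower. Leaving out ALDH_High library 2 gave 33, and leaving out ALDH_Low library 3 gave 31. Over all genes the same fits called 4221 of 17788, 2507 of 17373 and 2514 of 17743, against 3513 of 17047 in the main fit. In 24 of the 45 the difference stayed past the threshold in every one of up to 15 alternative fits that tested the gene.

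**Figure D2:**
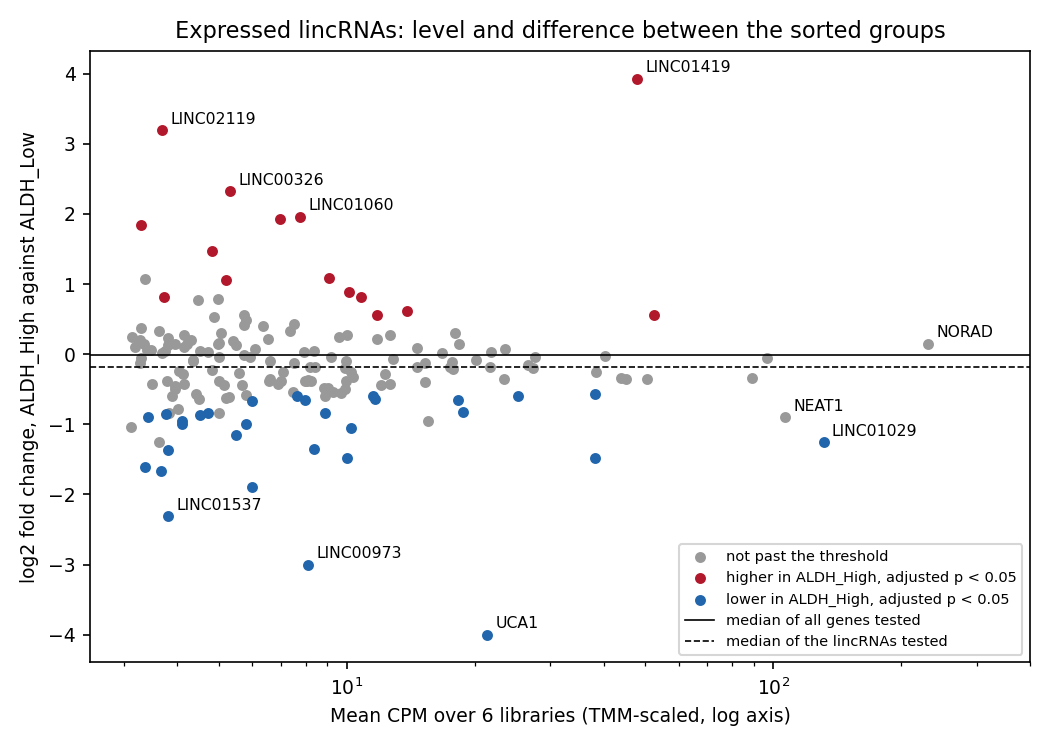
Log2 fold change of CPM, ALDH_High against ALDH_Low, for the 176 tested lincRNAs (vertical axis) against mean CPM over 6 libraries (horizontal log axis); red and blue points passed an adjusted p of 0.05. The 30 lower lincRNAs outnumber the 15 higher, and the median of the lincRNAs (dashed, -0.19) lies below that of all genes tested (solid, -0.013).

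UCA1, first described as a transcript associated with bladder carcinoma, had the largest fall. It lies on chromosome 19 (15828206 to 15836328, plus strand) and had 1.89, 2.40 and 3.14 CPM in ALDH_High libraries 1 to 3 against 44.8, 40.3 and 35.2 CPM in ALDH_Low libraries 1 to 3. Every ALDH_Low library was thus far above every ALDH_High library. The difference was 16-fold (log2 fold change -4.0, SE 0.20, adjusted p 3.71e-06), and it lay between -4.20 and -3.43 over the alternatives. The coding gene with the nearest start, the olfactory receptor gene OR10H1, is 12.5 kb away and did not pass (log2 fold change -0.20, adjusted p 0.802).

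LINC00973, on chromosome 3 (98981058 to 98983096), had 2.48, 1.71 and 1.26 CPM in ALDH_High against 16.4, 13.8 and 12.9 in ALDH_Low. It fell by 3.0 on the log2 scale (SE 0.26, adjusted p 3.85e-05). LINC01537 (chromosome 11, 72570660 to 72573229) stood at 1.42, 1.01 and 1.41 CPM against 7.03, 6.73 and 5.25 CPM and fell by 2.31 (SE 0.25, adjusted p 1.61e-04). Both were low but counted in every ALDH_High library. In limma on log2(TPM + 1) without a filter, which compresses low genes, LINC01537 had a log2 difference of -1.37.

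Among the other large falls, AC104024.2 (chromosome 17) dropped from 9.46 ± 1.86 CPM in ALDH_Low to 2.54 ± 0.332 CPM in ALDH_High (SD, n = 3; log2 fold change -1.90, SE 0.22, adjusted p 2.59e-04), or -1.23 in limma on log2(TPM + 1) without a filter. LINC02476 (chromosome 7) went from 5.58 ± 1.48 to 1.75 ± 0.382 CPM (-1.66, SE 0.28, adjusted p 0.00232). AL365356.5, now named LASTR, went from 5.04 ± 0.888 to 1.66 ± 0.483 CPM (-1.61, SE 0.28, adjusted p 0.00264). AL161431.1 (LINC03061, chromosome 13) was the most counted of these, with 16.6, 21.0 and 22.8 CPM in ALDH_High against 69.3, 50.4 and 49.5 in ALDH_Low (-1.48, SE 0.17, adjusted p 2.46e-04). AL365181.2, now BCAN-AS1, starts 0.386 kb from the brevican gene BCAN on the opposite strand and had 5.27 ± 0.411 against 14.7 ± 0.858 CPM (-1.48, SE 0.16, adjusted p 1.51e-04). These 5 were picked among lincRNAs whose groups do not overlap, and all stayed past the threshold in the 15 alternatives.

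The largest rise was that of LINC01419, on chromosome 8 (83403758 to 83408900). It had 103, 77.9 and 89.3 CPM in ALDH_High against 11.2, 1.37 and 4.89 in ALDH_Low. The ALDH_High values were close together, whereas the ALDH_Low values spread widely, from 1.37 to 11.2. Its log2 fold change was 3.93 (SE 0.52, adjusted p 5.50e-04) and ranged from 3.47 to 4.87 over the alternatives. LINC02119, on chromosome 5 (38025568 to 38184717), had 8.64, 5.56 and 5.72 CPM against 0.700, 0.435 and 1.04 CPM, a log2 fold change of 3.19 (SE 0.34, adjusted p 1.52e-04). In limma on log2(TPM + 1) without a filter the value for LINC02119 was 1.85.

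LINC00326 (chromosome 6, 132954257 to 133107410) had 12.4, 7.38 and 6.83 CPM in ALDH_High against 2.65, 0.970 and 1.62 in ALDH_Low (log2 fold change 2.33, SE 0.37, adjusted p 0.00158). LINC01060 (chromosome 4) had 8.87, 15.9 and 12.2 CPM against 2.39, 2.64 and 4.57 CPM (1.96, SE 0.30, adjusted p 0.00123). AL035541.1 (chromosome 20) had 12.4, 10.6 and 10.1 CPM against 1.82, 1.74 and 5.18 CPM (1.93, SE 0.38, adjusted p 0.00523). In AL035541.1 the ALDH_Low library 3 was the one nearest to ALDH_High, and without it the log2 fold change was 2.63. TEX41 (chromosome 2), whose locus lies beside ZEB2, had 3.43, 6.22 and 5.75 CPM against 1.43, 1.37 and 1.51 CPM (1.84, SE 0.28, adjusted p 0.00124).

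FAM225B and FAM225A start 1.5 kb apart on opposite strands of chromosome 9 and are near-identical copies, so how reads were shared between them is uncertain. Both rose, FAM225B with a log2 fold change of 1.47 (SE 0.21, adjusted p 9.23e-04) and FAM225A with 0.62 (SE 0.16, adjusted p 0.0228). FAM225B did not pass in limma on log2(TPM + 0.1) (1.36, adjusted p 0.0533) or on log2(TPM + 1) without a filter (0.73, adjusted p 0.0696), and FAM225A passed in 9 of 15 alternatives. LINC01819 (chromosome 2, 42972255 to 43040662) had 16.7, 10.2 and 9.94 CPM in ALDH_High against 7.42, 4.42 and 5.57 in ALDH_Low (1.08, SE 0.26, adjusted p 0.0157). ALDH_High library 1 was the highest for LINC01819, and the call was lost without ALDH_Low library 2 or library 3.

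**Figure D3:**
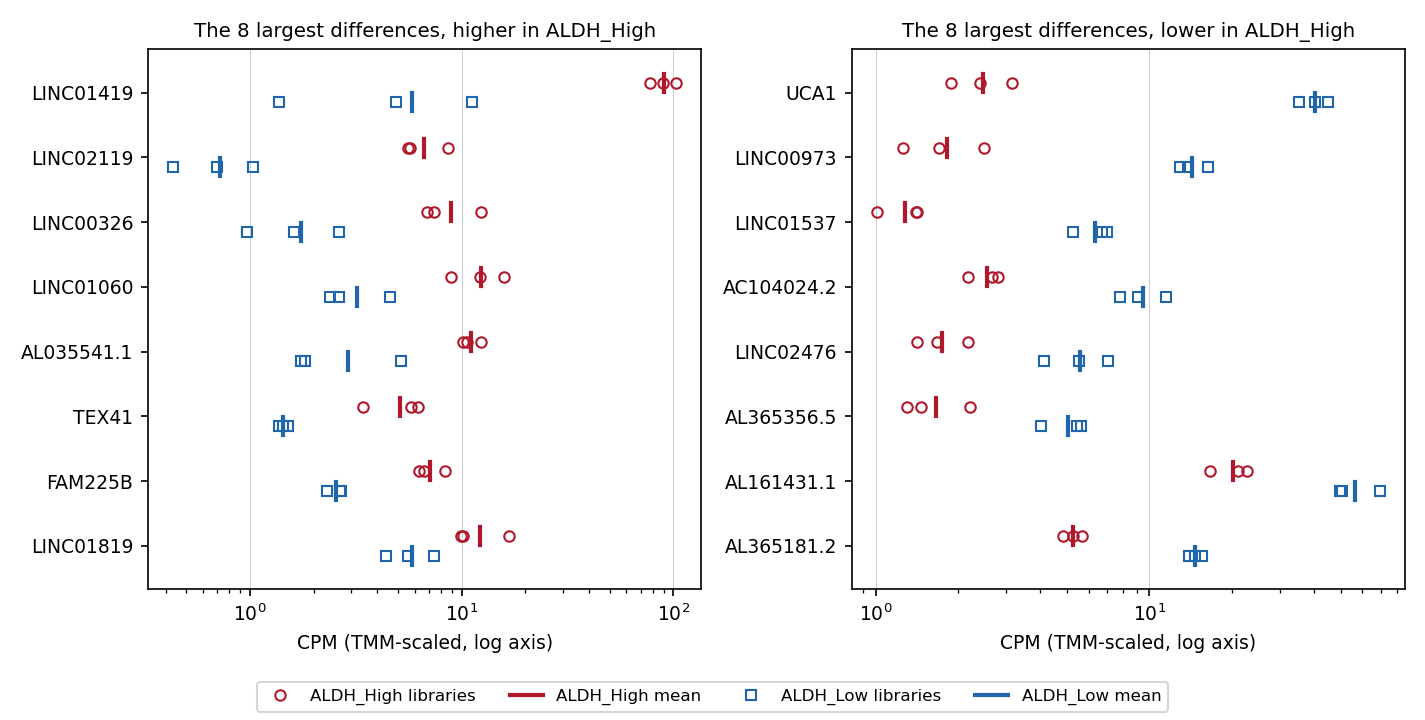
CPM by library (log axis) of the 8 higher and the 8 lower lincRNAs with the largest differences; circles are ALDH_High, squares ALDH_Low and bars the group means. The 16 were picked among lincRNAs whose groups do not overlap. UCA1 (1.89 to 3.14 against 35.2 to 44.8 CPM) and LINC01419 (77.9 to 103 against 1.37 to 11.2 CPM) lie farthest apart.

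Promoters are shown for 4 of these lincRNAs, a pair that rose and a pair that fell, so that the sequence around the start can be read beside the change. They come from RefSeq (GRCh38.p14) and hold 250 bases before and 50 bases after the start. Letters in capitals mark matches to GCCNNNGGC, a core of TFAP2 sites, in LINC01819, and to TGANTCA, a core of AP-1 sites, in AL365356.5. FAM225B and LINC01537 hold none of the 4 motifs searched, which also included the E-box CACGTG and the SOX core AACAATG. The windows are chr2:43039494-43039793, minus strand for LINC01819, chr9:113111628-113111927, minus strand for FAM225B, chr11:72570406-72570705, plus strand for LINC01537 and chr10:5596069-5596368, minus strand for AL365356.5.
LINC01819: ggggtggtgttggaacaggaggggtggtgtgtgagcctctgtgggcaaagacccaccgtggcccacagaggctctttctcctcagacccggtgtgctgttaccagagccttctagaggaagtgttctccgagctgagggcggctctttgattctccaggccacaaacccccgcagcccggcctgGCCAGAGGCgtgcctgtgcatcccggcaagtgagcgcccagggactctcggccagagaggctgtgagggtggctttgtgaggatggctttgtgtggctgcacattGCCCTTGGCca
FAM225B: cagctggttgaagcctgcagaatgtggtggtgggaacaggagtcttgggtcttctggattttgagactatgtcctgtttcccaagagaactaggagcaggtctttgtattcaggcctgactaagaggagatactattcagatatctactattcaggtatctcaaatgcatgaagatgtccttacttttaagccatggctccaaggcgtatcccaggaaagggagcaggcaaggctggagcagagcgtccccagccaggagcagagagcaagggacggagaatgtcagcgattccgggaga
LINC01537: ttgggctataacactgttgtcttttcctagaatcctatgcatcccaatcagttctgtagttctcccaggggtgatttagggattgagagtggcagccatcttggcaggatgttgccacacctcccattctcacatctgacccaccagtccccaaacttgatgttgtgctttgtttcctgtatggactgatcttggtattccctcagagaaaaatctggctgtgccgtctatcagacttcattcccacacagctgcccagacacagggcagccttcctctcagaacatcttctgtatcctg
AL365356.5: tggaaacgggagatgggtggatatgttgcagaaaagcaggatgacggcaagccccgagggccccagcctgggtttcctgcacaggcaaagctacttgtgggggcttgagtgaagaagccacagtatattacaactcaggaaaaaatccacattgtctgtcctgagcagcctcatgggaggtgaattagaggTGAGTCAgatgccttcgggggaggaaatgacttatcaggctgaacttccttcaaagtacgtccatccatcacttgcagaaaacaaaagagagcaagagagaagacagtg
The RefSeq start lies 4 bp from the GENCODE 44 start of the gene for LINC01537, 134 bp for FAM225B and 1.12 kb for LINC01819 and 36.4 kb for AL365356.5. Of the 4 windows, the one of LINC01537 holds the GENCODE start. Of the 177 lincRNAs, 90 had a promoter in the RefSeq table. TGANTCA, searched on both strands, occurred in 14 of these 90 (15.6%) and in 7.71% of all 35116 promoters in the table. GCCNNNGGC occurred in 22.2% against 23.2%, CACGTG in 4.44% against 7.26%, and AACAATG in 2.22% against 3.33%. Among the lincRNAs that fell, 3 of the 17 with a promoter held TGANTCA, and among those that rose 1 of 6 did. A match describes letters and does not show binding.

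The nuclear and chromatin lincRNAs did not pass in either direction: 0 of the 7 measured did in edgeR, with 1 lower and 0 higher at an unadjusted p below 0.05, and 0 in DESeq2. NEAT1, the scaffold of paraspeckles, had 31.7, 76.3 and 116 CPM in ALDH_High against 206, 89.0 and 123 in ALDH_Low. MALAT1, a component of nuclear speckles, had 34.0, 72.3 and 130.3 CPM against 142, 68.9 and 89.2 CPM. Both were lowest in ALDH_High library 1 and highest in ALDH_Low library 1, and both overlapped between the groups. NEAT1 had a log2 fold change of -0.90 (SE 0.41, adjusted p 0.163), which passed in 1 of 15 alternatives, the fit without a low-count filter (adjusted p 2.22e-09). MALAT1 had -0.34 (SE 0.41, adjusted p 0.620), and its sign turned without ALDH_High library 1 (0.035) or without ALDH_Low library 1 (0.015).

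NORAD, which binds PUMILIO proteins and was named for activation by DNA damage, was the most counted of all lincRNAs here, with 186, 253 and 291 CPM in ALDH_High against 221, 228 and 207 in ALDH_Low. Its log2 fold change was 0.15 (SE 0.15, adjusted p 0.547). Without ALDH_High library 1 it was 0.33, with an adjusted p of 0.0419. JPX and FTX, transcripts of the X-inactivation centre, had log2 fold changes of -0.18 and 0.068, CRNDE 0.25 and LINC01116 -0.48, with adjusted p between 0.0879 and 0.897. Without ALDH_High library 1, LINC01116 passed at -0.60. In the whole list of nuclear and chromatin lncRNAs, with other biotypes included, 1 rose and 2 fell of 16 tested, against 20.6% of all genes. The counts were 1 and 3 without ALDH_High library 1, 1 and 0 without ALDH_High library 2, and 0 and 2 in DESeq2. They were 0 and 1 without ALDH_High library 3, ALDH_Low library 1 or ALDH_Low library 2. Without ALDH_Low library 3 they were 0 and 0 (1 and 2 at an unadjusted p below 0.05). SOX2-OT rose (1.75, adjusted p 0.0253) at a low level, with a mean of 0.603 CPM in ALDH_High against 0.175 in ALDH_Low. LINC-PINT (ENSG00000231721, -0.75, adjusted p 0.0163) and HOTAIRM1 (-0.78, adjusted p 0.0464) fell.

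SnoRNA host genes carry snoRNAs, which guide the modification of ribosomal RNA, in their introns. Of 8 among the lincRNAs 2 fell and 0 rose in edgeR, and at an unadjusted p below 0.05 the counts were 3 and 0; in DESeq2 they were 2 and 0. The 2 were SNHG19 (7.61, 10.9 and 8.91 against 12.3, 14.9 and 14.4 CPM) and LINC02001, now SNHG30 (6.63, 5.88 and 5.75 against 8.77, 8.26 and 10.4 CPM; log2 fold change -0.59, SE 0.18, adjusted p 0.0422). SNHG19 passed in 7 of 15 alternatives and LINC02001 in 9; without ALDH_High library 1 or library 2 only 1 of the 8 did, and without ALDH_High library 3 or any single ALDH_Low library none did. The remaining 6 had log2 fold changes from -0.35 (SNHG8) to -0.027 (SNHG15), none past the threshold. SNHG4 was lowest in ALDH_High library 1, at 10.6 CPM, against 21.3 and 28.5 CPM in libraries 2 and 3; it overlaps MATR3 exons on its own strand, so its counts are uncertain. Over the whole list of host genes, including biotypes other than lincRNA, 1 of 27 rose and 4 fell, against 20.6% of all genes tested. The 4 were 1 without ALDH_Low library 2, 0 without ALDH_Low library 3 (4 at an unadjusted p below 0.05), 2 without ALDH_High library 1 or ALDH_Low library 1, and 1 in limma on log2(TPM + 1), and 5 in DESeq2. The other 2 that fell were SNHG12 (-1.04, adjusted p 0.0123) and SNHG21 (-0.96, adjusted p 0.0293), and SNHG17 rose (0.36, adjusted p 0.0455).

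MicroRNA host genes are transcripts from which microRNA hairpins are cut. Of the 177 lincRNAs, 13 enclose mature microRNAs of the RefSeq table on their own strand, 36 in all from 22 microRNA genes. Mature sequences of 6 host genes are shown, that of MIR22HG because the host fell and the others because their shared seeds (bases 2 to 8, in capitals) tie several microRNAs to 1 host: MIR222HG encloses miR-221 and miR-222, MIRLET7BHG encloses let-7a and let-7b, and LINC00472 encloses miR-30a and miR-30c, while CYTOR and MIR4435-2HG each enclose a copy of miR-4435.
hsa-miR-22-3p: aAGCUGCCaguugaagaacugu
hsa-miR-221-3p: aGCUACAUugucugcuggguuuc
hsa-miR-222-3p: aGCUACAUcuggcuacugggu
hsa-let-7a-5p: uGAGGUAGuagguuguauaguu
hsa-let-7b-5p: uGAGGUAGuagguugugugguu
hsa-miR-30a-5p: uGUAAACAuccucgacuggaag
hsa-miR-30c-5p: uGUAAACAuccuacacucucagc
hsa-miR-4435: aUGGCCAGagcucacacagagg
MIR222HG had 9.47, 25 and 23.2 CPM in ALDH_High against 11.9, 18.2 and 22.4 in ALDH_Low. Library 1 was the lowest of its group in both, the groups overlapped, and the log2 fold change was 0.14 (SE 0.33, adjusted p 0.815). MIRLET7BHG had 3.70 ± 0.305 against 4.53 ± 0.787 CPM (SD, n = 3; -0.29, adjusted p 0.412). LINC00472 had 0.749, 3.07 and 2.55 against 6.35, 6.29 and 2.70 CPM (-1.25, SE 0.47, adjusted p 0.0919), with ALDH_Low library 3 inside the range of ALDH_High; it passed without a low-count filter and in DESeq2. CYTOR and MIR4435-2HG are duplicated copies of each other, so their reads cannot be fully separated, and their values were close: 38.7 ± 2.78 against 49.2 ± 7.19 CPM for CYTOR (-0.34, adjusted p 0.101) and 39.7 ± 3.13 against 50.6 ± 3.28 CPM for MIR4435-2HG (-0.35, adjusted p 0.0594). The level of a host transcript is not the level of its mature microRNAs, which were not measured here.

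Among the 5 genes of the fixed list of microRNA hosts that were expressed lincRNAs, 1 fell and 0 rose in edgeR. Unadjusted counts were 2 and 0, DESeq2 gave 1 and 0, and limma on log2(TPM + 1) gave 0 and 0. Of all genes tested, 9.83% fell and 10.8% rose in edgeR. MIR22HG, the host of miR-22, had 12.6, 13.9 and 15.9 CPM in ALDH_High against 18.9, 22.8 and 25.6 in ALDH_Low. The groups lay apart, and MIR22HG fell by 0.66 on the log2 scale (SE 0.16, adjusted p 0.0142). The call was lost without ALDH_High library 2 or ALDH_Low library 3, and in limma on log2(TPM + 1) with or without a TPM filter. Over all 29 tested hosts of that list 2 rose and 7 fell, and the counts were 2 and 2 without ALDH_High library 2, 1 and 3 without ALDH_Low library 3, and 5 and 6 without ALDH_High library 1. H19, the imprinted host of miR-675, rose (55.7 ± 7.92 against 11.0 ± 11.0 CPM, SD, n = 3; 2.32, adjusted p 0.0125), as did DLEU2 (0.62, adjusted p 0.0152). MIR31HG (-1.51, adjusted p 0.0144), MIR193BHG (-1.49, adjusted p 0.0265) and MIR100HG (-0.91, adjusted p 0.00157) were among those that fell.

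Of the lincRNAs linked to p53 and stress, 2 of 5 fell and 0 rose (unadjusted 2 and 0, DESeq2 2 and 0): UCA1 and MIR22HG, both described above. In limma on log2(TPM + 1), 1 of the 5 fell and 0 rose. Of all genes tested, 9.83% fell and 10.8% rose in edgeR. LINC00941 (-0.18, adjusted p 0.396) and EPB41L4A-AS1 (-0.20, adjusted p 0.405) did not pass. Over the whole list 0 of 14 rose and 5 fell, with 2 and 6 at an unadjusted p below 0.05 and 1 and 4 in DESeq2; without 1 library the number lower lay between 1 (ALDH_High library 2) and 5. LUCAT1 (-1.26, adjusted p 0.0236) and LINC01503 (-1.33, adjusted p 0.0389) were in the list and fell. Both were low, with means of 0.660 and 0.476 CPM in ALDH_High against 1.59 and 1.18 in ALDH_Low. MIR34AHG, the p53-responsive host of miR-34a, had 3.27 ± 1.12 against 1.73 ± 0.340 CPM (0.93, adjusted p 0.0660).

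The melanoma list held 1 gene of the set, UCA1. Its other genes have another biotype in the deposited table or a lower count, and 3 of the 9 tested rose and 1 fell. Of all genes tested, 10.8% rose and 9.83% fell. AC025470.2, annotated by GENCODE 44 as RMEL3, a transcript restricted to melanoma, had 19 ± 3.64 CPM in ALDH_High against 1.09 ± 0.626 in ALDH_Low (SD, n = 3; 4.16, SE 0.35, adjusted p 3.47e-05). DIRC3 also rose (1.95, adjusted p 0.0204), from 0.114 ± 0.0486 to 0.448 ± 0.117 CPM. SAMMSON, a mitochondrial regulator of melanoma growth co-amplified with MITF, stood at 1.60 ± 0.462 and 1.67 ± 0.450 CPM (-0.046, adjusted p 0.945).

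Of 9 lincRNAs associated with tumour growth, 1 fell and 0 rose in edgeR, where 9.83% of all genes tested fell and 10.8% rose. Unadjusted counts were 4 and 1, and DESeq2 gave 1 and 1. LINC00346, now PRECSIT, a p53-regulated activator of STAT3, had 2.41, 2.46 and 3.20 CPM in ALDH_High against 5.42, 3.91 and 5.21 in ALDH_Low (-0.85, SE 0.24, adjusted p 0.0307). The call was kept in 8 of the 13 alternatives that tested it and lost, among others, without ALDH_High library 1 (-0.76) and without ALDH_Low library 3 (-0.80). PVT1, which lies beside MYC on chromosome 8, had 11.1 ± 1.08 against 13.5 ± 1.53 CPM and did not pass (-0.28, adjusted p 0.254). LINC00565, now SWINGN, a partner of the SWI/SNF complex, had 6.33 ± 1.70 against 3.65 ± 1.08 CPM (0.79, adjusted p 0.0828), and it passed in DESeq2 (0.82), without a low-count filter (0.80) and without ALDH_High library 1 (1.0).

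The gene with the nearest start was known for 172 lincRNAs placed by GENCODE 44. In 28 of them the start lay within 1 kb of that of a coding gene on the opposite strand. Pairs that point apart and pairs that overlap were not separated. Of these 28, 9 fell and 0 rose (32.1% called, against 20.6% of all genes), with 14 and 0 at an unadjusted p below 0.05 and 9 and 0 in DESeq2. With each library left out in turn, between 5 and 9 fell and 0 rose; 5 was the count without ALDH_Low library 3. The median log2 fold change was -0.44 for the 28 lincRNAs and -0.036 for their coding partners. None of the 9 partners of the lincRNAs that fell passed the threshold in edgeR. Of all 28 partners 6 passed, against 20.9% of protein-coding genes with the same minimum count. NUP50, SLC12A2, SH3TC2 and HK2 rose, and RAB30 and CENATAC fell, each beside a lincRNA that did not pass. SCAMP1-AS1 had 2.92, 3.59 and 3.72 CPM in ALDH_High against 6.46, 8.13 and 8.12 in ALDH_Low (-1.15, adjusted p 0.00326), while SCAMP1, a carrier protein of secretory vesicles, had a log2 fold change of -2.1e-05. AP002360.1 (EMSY-DT) fell by 1.0 (adjusted p 0.00577), with EMSY at 0.12. The difference within each such pair was not tested.

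Farther from coding genes the balance was closer. Of 57 lincRNAs with a start 1 to 50 kb away, 5 rose and 10 fell, and the counts ranged from 3 and 5 (without ALDH_High library 2) to 8 and 10 (without ALDH_High library 1). Of 82 tested with a start over 50 kb away, 9 rose and 11 fell. The shares called were 26.3% at 1 to 50 kb and 24.4% over 50 kb. They were 25.6% for all tested lincRNAs and 20.6% for all genes tested. The 4 with a start within 1 kb on the same strand held 0 called in edgeR, 0 at an unadjusted p below 0.05 and 0 in DESeq2. Whether lincRNAs were called more often in one class than another was not tested.

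LincRNA and nearest coding gene were both tested in 138 pairs. Across these pairs the log2 fold changes had a Pearson correlation of 0.37 and a Spearman correlation of 0.25. They are given as a description because both values come from the same libraries. The pairs are also not independent, since the 171 tested lincRNAs had 155 distinct nearest coding genes. TPTE, for example, was the nearest of several lincRNAs of chromosome 21, at 1197 to 5019 kb. In 31 pairs the lincRNA passed, and in 8 of these the coding gene passed as well, 7 in the same direction and 1 in the opposite. This share is near the 20.9% of protein-coding genes with the same minimum count that passed. LINC02119 rose with GDNF, a neurotrophic ligand of the RET receptor, whose start is 186 kb from the GENCODE 44 start of LINC02119. The RefSeq start of LINC02119 lies 123 kb from its GENCODE 44 start, so the distance is uncertain. GDNF had 13.4, 12.8 and 13 CPM in ALDH_High against 0.441, 0.435 and 0.827 in ALDH_Low (4.54, SE 0.27, adjusted p 5.94e-06). AL121772.1 rose (1.06, SE 0.22, adjusted p 0.00714) together with PYGB, the brain form of glycogen phosphorylase, 2.86 kb away (1.5, SE 0.15, adjusted p 9.40e-05); both are on chromosome 20. AC026401.3 (0.81) rose with NDE1 (0.89, adjusted p 0.00103), a regulator of dynein, and AP001505.1 (0.82) with SLX9 (0.54, adjusted p 0.00926).

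Downward, LINC00973 fell with DCBLD2, a receptor-like membrane protein, 79.4 kb away by the GENCODE 44 start. The RefSeq start of LINC00973 lies 66.5 kb from its GENCODE 44 start, so this distance is uncertain too. DCBLD2 had 346, 323 and 330.1 CPM in ALDH_High against 597, 541 and 429 in ALDH_Low (-0.65, SE 0.13, adjusted p 0.00604). AC104024.2 fell with MPRIP, which binds myosin phosphatase (-0.50, adjusted p 0.00719), and AL365356.5 with ASB13, a substrate adaptor of a ubiquitin ligase (-0.62, adjusted p 0.0136). AL161431.1 was the opposite case, since its nearest coding gene, IRS2, an insulin receptor substrate 517 kb away, rose from 102, 75 and 75.3 to 139, 178 and 208 CPM (1.06, SE 0.17, adjusted p 0.00190). For TEX41 and ZEB2, a repressor of epithelial genes, only the lincRNA passed (ZEB2 0.59, adjusted p 0.353). Several lincRNAs that did not pass lie nearest to a coding gene that did, among them PVT1 with MYC (-0.86, adjusted p 0.00374), NEAT1 with FRMD8 (0.80, adjusted p 0.00234) and MIRLET7BHG with WNT7B (-2.56, adjusted p 0.0112). WNT7B was low, at a mean of 0.398 CPM in ALDH_High against 2.26 in ALDH_Low.

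**Figure D4:**
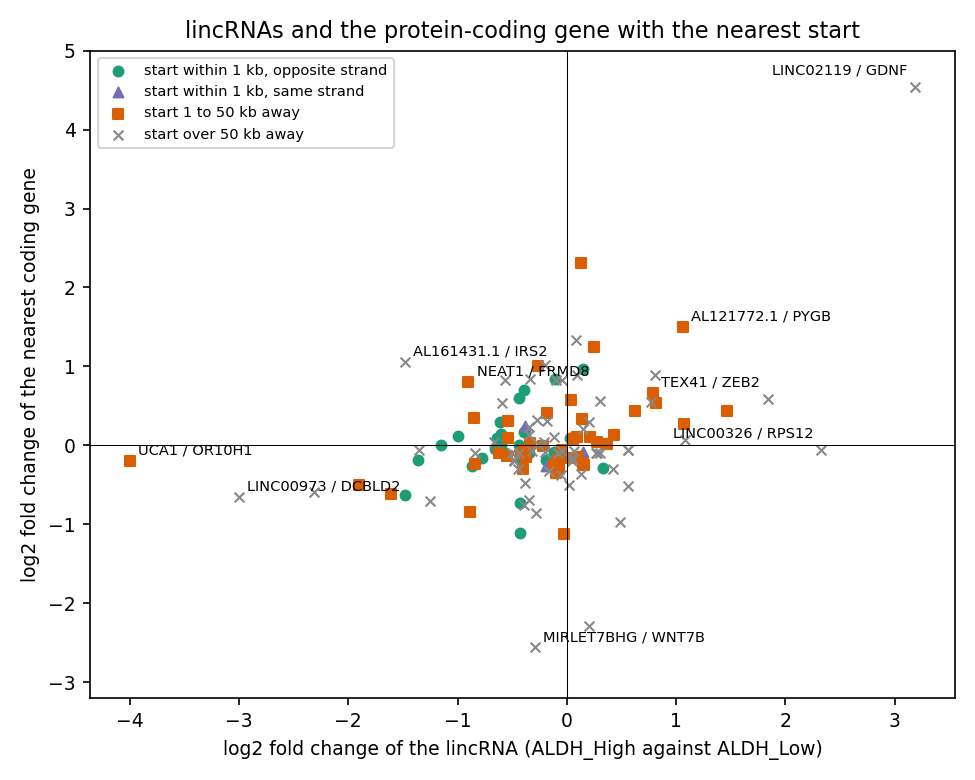
Log2 fold change, ALDH_High against ALDH_Low, of each lincRNA (horizontal) and of the coding gene with the nearest start (vertical) in 138 pairs; marks give the distance class. LINC02119 and GDNF lie together at the upper right (3.19 and 4.54). UCA1 has its nearest coding gene, the barely counted OR10H1 (0.686 CPM in ALDH_High, 0.778 in ALDH_Low), near 0 (-0.20). The pairs with starts within 1 kb on opposite strands lie mostly left of 0.

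Neighbouring lincRNAs did not always move together. LINP1, which takes part in DNA end joining, and LINC00707 start 70.0 kb apart on chromosome 10 on the same strand. LINP1 had 5.72, 4.11 and 4.40 CPM in ALDH_High against 11.8, 11.3 and 12.9 in ALDH_Low and fell (-1.35, SE 0.19, adjusted p 7.31e-04), whereas LINC00707 had 48.1, 73.0 and 67.1 against 36.2, 46.9 and 44.4 CPM and rose (0.56, SE 0.17, adjusted p 0.0393). The rise of LINC00707 passed in 6 of 15 alternatives and was lost with upper-quartile scaling. LINC02434 (-0.84, adjusted p 0.0192) and LINC01060 (1.96), 241 kb apart on chromosome 4, also went in opposite directions. On chromosome 18, AC134978.1 lies within the span of LINC01029, starts 7.12 kb from its start on the same strand, and had 5.48, 12.6 and 13.5 against 19.7, 26.6 and 14.8 CPM (-0.95, adjusted p 0.0606). Its value has the sign of that of LINC01029 (-1.25), and it passed with the replicate number as a block, without a low-count filter and in DESeq2.

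By chromosome, all 10 lincRNAs of chromosome 12 had log2 fold changes below 0, against 63.1% of all tested lincRNAs. Of the 10, 1 was past the threshold (MAPKAPK5-AS1, -0.64, adjusted p 0.0157), and the coding genes there had a median of -0.029. Without ALDH_High library 2, 9 of the 10 were below 0, and none passed in edgeR (3 lower and 0 higher at an unadjusted p below 0.05). On chromosome 20 all 5 lay above 0 and 2 rose (AL035541.1 and AL121772.1), with a coding median of 0.28. Without ALDH_High library 1, ALDH_High library 3 or ALDH_Low library 2, 1 of the 5 was below 0. On chromosome 13 the coding median was 0.37 and 5 of 7 lincRNAs lay above 0, but the 2 that passed in edgeR, AL161431.1 and LINC00346, fell. On chromosome 18 the coding median was -0.23, 5 of 6 lincRNAs lay below 0 and 2 fell, LINC01029 and LINC00667 (-0.57, adjusted p 0.00675). On chromosome 17, 4 of 10 fell and 0 rose (median -0.51, coding median 0.048). Without ALDH_High library 2 or ALDH_Low library 3, 2 of these 10 fell. On chromosome 3, 3 of 5 fell and 0 rose (median -0.95, coding median 0.0077). Of the 45 lincRNAs that differed, 39 did not lie on chromosomes 13, 18 or 20, 13 higher and 26 lower. Over all chromosomes 25.6% of the tested lincRNAs and 20.6% of all genes tested differed.

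**Figure D5:**
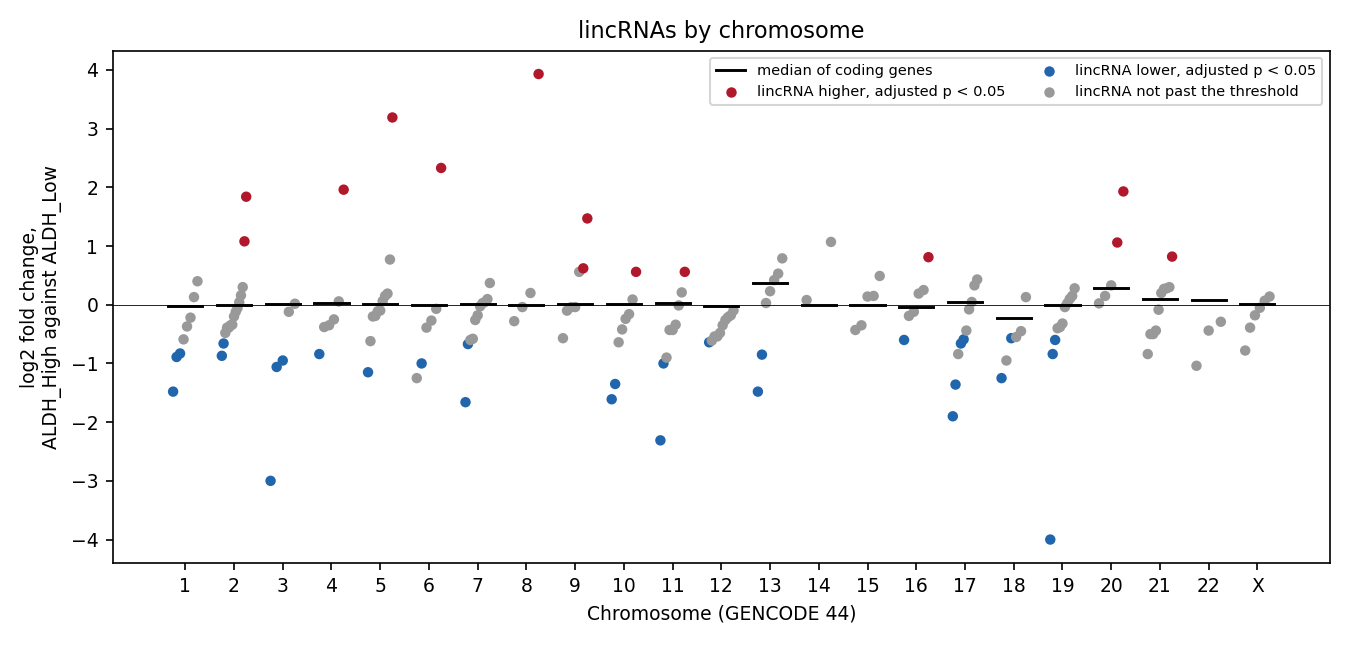
Log2 fold change of the tested lincRNAs, ALDH_High against ALDH_Low, by chromosome; red and blue points passed an adjusted p of 0.05 and black bars are the medians of coding genes on that chromosome. All 10 points of chromosome 12 lie below 0 and all 5 of chromosome 20 above it, and chromosomes 13, 18 and 20 have coding medians of 0.37, -0.23 and 0.28.

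Annotation limits what some counts mean. GENCODE 44 holds 172 of the 177, of which 171 are still noncoding and 1 (BLACAT1) is now protein coding; 30 carry a new name and 72 had clone-based names in the deposited table. AC027031.2, which rose (14.9, 10.6 and 13.9 against 6.85, 6.26 and 8.34 CPM; 0.88, adjusted p 0.00916), is 1 of the 5 not placed. In 25 lincRNAs an exon overlaps a coding exon, 9 on the same and 18 on the opposite strand, and 3 of these were among the 45 that differed. Without such overlaps 41 of 146 differed, 14 higher and 27 lower. Single-exon models numbered 38, of which 2 rose and 7 fell (23.7% called). Of 133 tested models with several exons, 12 rose and 23 fell (26.3%), against 20.6% called among all genes tested.

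Some lincRNAs varied widely between libraries of 1 group. The median within-group SD of log2(CPM + 0.5) over the lincRNAs was 0.22, against 0.17 for all tested genes with the same minimum count. LINC02228, the 1 lincRNA that was not tested, had 309, 6 and 8 counts in ALDH_High and 6, 490 and 4 counts in ALDH_Low, so that 1 library in each group was high. FP671120.3, from the repeated short arm of chromosome 21, had 19.8, 5.50 and 7.62 CPM against 1.89, 24.7 and 0.431 CPM, and FP236241.1 of the same arm 0.670, 11.7 and 1.17 against 3.50, 6.09 and 1.76 CPM. Near-identical copies of these sequences make the counts uncertain. At the limit of the set, AP000547.3, AC016588.2 and AC008915.2 averaged 101, 102 and 102 counts and were included, and LINC01003, AL358334.2 and AC090409.1 averaged 99.5, 99.2 and 96.8 counts and were not.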

How the data were processed

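RNA was sequenced from 3 ALDH_High and 3 ALDH_Low libraries of sorted A375 cells. The submitters' processing notes name FastQC 0.11.3, STAR 2.5.1b, HTSeq 0.6.1, DESeq2 and GRCh38, without roles or order; the annotation release and the use of strand in counting are not given in the sources used here. The authors deposited whole-number counts that behave as rounded estimated counts (expected counts): in each library 133 to 177 genes had a count of 0 beside a TPM above 0. They also deposited TPM values, whose gene lengths are not given in the sources used here.

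Genes were filtered with filterByExpr, scaled with TMM and tested with edgeR 4.0.16 (quasi-likelihood F-test, two-sided, R 4.3.3) over the whole table with group as the one factor. P-values were adjusted by the Benjamini-Hochberg method across the 17047 genes of the fit, with a threshold of 0.05. CPM values use TMM-scaled totals. The fit was tested on simulated data. Alternatives were DESeq2 1.42.0, limma 3.58.1 on log2(TPM + 1) and log2(TPM + 0.1), other factors and filters, and each library left out; counts by position and list under these fits were added after seeing the data. The 261 entries with an identifier and no symbol were kept. Positions come from GENCODE 44, sequences from RefSeq GRCh38.p14.

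The lincRNAs and lists were chosen with earlier results of these data known. Genes were named by rule: the 8 higher and 8 lower lincRNAs of largest log2 change in either sign among those past the threshold with groups that do not overlap, the 8 with the highest mean TPM, all in a role list, the 3 on each side of the count minimum, and the nearest coding genes of these. Other genes named were chosen after their values were seen. Some items are not reported here.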

Additional observations from a re-analysis of the deposited data

How the results depend on the processing

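Counts of lincRNAs that differed (45, with 15 higher and 30 lower) moved by more than 1.5 times in few settings: 27 in all and 17 lower at an adjusted p below 0.01; 23, 9 higher and 14 lower, when a log2 change of 1 or more in size was also required; 9 higher in limma on log2(TPM + 1) with all TPM levels kept; 46 lower with a mean count of at least 50; and 25, 9 higher and 16 lower, with a mean count of at least 200. The threshold changes and the count minimums alter which genes qualify; for limma the cause was not tested. Leaving out 1 library gave 31 to 52 in all, 11 to 18 higher and 20 to 34 lower. Over all genes tested these fits called 2488 to 4221, against 3513 in the main fit. Upper-quartile scaling shifted the median of all genes from -0.013 to -0.062 and gave 13 higher and 34 lower.

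The replicate number as a block gave 53 lincRNAs, 15 higher and 38 lower, among them all 45. Over all genes the block fit called 3748 of 17047, against 3513 in the main fit. Deviations of same-numbered libraries correlated at 0.15, 0.076 and 0.108 on edgeR's log2 CPM and at 0.194, 0.132 and 0.106 on log2(CPM + 0.5), so the pairing of the numbers was not established; each library correlated best with its own number, a hint from the data and not the design.

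For 49 lincRNAs named by the rule, 667 of 733 alternative values kept direction and side of the threshold, 28 (6 lincRNAs) fell short of it, 16 (8) passed it and 22 (10) changed sign, in each case for genes that had not passed. Leaving out 1 library at a time, log2 fold changes spanned -0.20 to 0.12 for SNHG25, -0.89 to 0.035 for MALAT1, -0.093 to 0.31 for FTX, -1.6e-05 to 0.41 for CRNDE, -0.51 to 0.13 for SNHG4. They spanned -0.09 to 0.057 for SNHG15, -0.07 to 0.49 for MIR222HG, -0.17 to 0.18 for LINC00665, -0.05 to 0.33 for AC016588.2, -0.32 to 0.035 for AC008915.2. SNHG15 was 0.025 in each limma fit, and LINC00665 -0.024 with upper-quartile factors. Limits: 3 libraries a group, A375 only, polyadenylated RNA, and counts of overlapping or duplicated genes that cannot be separated.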
